A study of Mus musculus with 18 samples.

Results

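The Zfp genes are the mouse genes named as zinc finger proteins with a number, and 214 of them are described here. The members were chosen by their mean signal: a gene was included if its symbol was Zfp followed by digits only and its brightest probe set with a single gene symbol had a mean of 3 or more over all 18 arrays. That level kept 214 of 305 measured Zfp genes, and the array measured 18193 genes in all, 10521 of them with a mean of 3 or more. Their brightness was used for that choice, so their brightness is a description and carries no test. Just inside the level lay Zfp93 with a mean of 3.13, Zfp784 with 3.07 and Zfp493 with 3.00, and just outside lay Zfp53 with 2.996, Zfp524 with 2.99 and Zfp213 with 2.99.

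Most Zfp proteins carry arrays of C2H2 zinc fingers, small folds held by a zinc ion that read short stretches of DNA. In the largest family the fingers are joined to a KRAB domain, which recruits the co-repressor Trim28 and, through it, the histone methyltransferase Setdb1, so that the bound DNA is packed as heterochromatin. Many KRAB zinc finger proteins bind transposable elements or imprinted regions, and their genes sit in clusters of close copies that arose by duplication. A minority of members have other roles, in messenger RNA decay, ribosome quality control or the mitotic spindle.

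The study profiled cerebellum from mice carrying altered forms of Cacna1a, which encodes the pore of the Cav2.1 calcium channel, as models of spinocerebellar ataxia type 6. The tested mice were homozygous MPI 118Q knock-ins, homozygous Sca6 CtmKO mice, here called Ctm knockouts, and homozygous MPI 11Q knock-ins. Each line was set against wild-type littermates of its own, with 3 arrays in each of the 6 groups, all on C57BL/6. The series states an age of 6 weeks for the 118Q and Ctm mice. Wild-type littermates of all 3 lines were labelled with the same strain and tissue, and no treatment is labelled.

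Values are log2 signals, on which a difference of 1 is a 2-fold change, and changes are mutant minus wild type, given with their standard errors (SE) from limma on all 18 arrays. A gene was called where its p-value, adjusted by Benjamini-Hochberg over all 18193 genes, was below 0.05. Array medians lay between 2.38 and 2.55, and any pair of arrays correlated at 0.973 to 0.995. Purkinje, granule, Bergmann glia and oligodendrocyte markers had gene means of 4.83 or more, while no measured forebrain or hindbrain Hox marker reached 3. Wild-type arrays 2 and 3 of the Ctm line stood apart from all others in the members, so values of the Ctm line are also given without them. The Ctm wild types are then array 1 alone, which the model takes to vary like the other groups.

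The promoter windows of 4 of the 15 members called in the Ctm line, described next, are shown as pairs that aligned with each other. A link between alike windows and the changes was not tested. They are RefSeq windows of build GRCm38.p6, from 250 bases before to 50 bases after the annotated start, printed 5′ to 3′ on the gene's strand. Capitals mark GGGCGG, the GC box, read on either strand. Zfp758 lies at chr17:22361213-22361512 on the plus strand, Zfp943 at chr17:21962309-21962608 on the plus strand, Zfp932 at chr5:109996260-109996559 on the plus strand and Zfp950 at chr19:61140791-61141090 on the minus strand.
Zfp758: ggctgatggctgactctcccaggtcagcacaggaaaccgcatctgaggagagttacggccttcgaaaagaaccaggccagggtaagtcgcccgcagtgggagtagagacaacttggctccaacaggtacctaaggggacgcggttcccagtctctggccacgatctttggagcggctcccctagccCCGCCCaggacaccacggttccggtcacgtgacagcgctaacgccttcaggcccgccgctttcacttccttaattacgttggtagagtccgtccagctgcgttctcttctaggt
Zfp943: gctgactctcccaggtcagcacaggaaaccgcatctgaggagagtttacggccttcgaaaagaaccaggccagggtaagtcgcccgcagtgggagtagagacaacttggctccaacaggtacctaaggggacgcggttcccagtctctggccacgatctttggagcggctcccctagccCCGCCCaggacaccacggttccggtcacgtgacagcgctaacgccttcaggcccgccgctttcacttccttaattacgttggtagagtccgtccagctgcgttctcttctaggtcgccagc
Zfp932: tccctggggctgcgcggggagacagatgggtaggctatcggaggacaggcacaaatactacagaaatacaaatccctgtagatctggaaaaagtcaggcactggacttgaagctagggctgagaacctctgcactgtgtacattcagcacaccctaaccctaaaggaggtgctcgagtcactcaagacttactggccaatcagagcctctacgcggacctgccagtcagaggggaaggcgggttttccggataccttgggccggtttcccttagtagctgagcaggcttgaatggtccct
Zfp950: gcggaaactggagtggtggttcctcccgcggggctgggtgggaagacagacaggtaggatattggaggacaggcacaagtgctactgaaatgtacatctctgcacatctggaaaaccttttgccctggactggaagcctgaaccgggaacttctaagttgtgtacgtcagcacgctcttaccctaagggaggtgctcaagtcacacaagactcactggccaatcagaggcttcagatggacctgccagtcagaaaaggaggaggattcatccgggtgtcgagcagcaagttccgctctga
The windows of Zfp758 and Zfp943 were identical at 292 of 293 aligned bases (99.7%), although the genes are separate entries on chromosome 17. Those of Zfp932 and Zfp950, on different chromosomes, matched at 189 of 246 aligned bases (76.8%). The window of Zfp950 matched that of Zfp958 on chromosome 8, which was not called in the Ctm line, at 180 of 246 (73.2%). Neither pair reached the 80% used to count windows as alike. By that rule, over at least 200 aligned columns of windows that do not overlap, 1 of 91 pairs of called members was alike. Among all pairs of members it was 2 of 15225. The window of Zfp942, on the minus strand at chr17:21962415-21962714, shares 194 bases with that of Zfp943, so this pair is transcribed outward from one stretch of DNA.

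In the Ctm line, 15 of the 214 members were higher in knockouts than in wild types and none was lower (7.01%), where 0.929% of all genes (0.835% higher and 0.0934% lower) and 1.43% of the other genes with a mean of 3 or more were called in either direction. Among all genes the calls were 152 higher and 17 lower. An unadjusted p below 0.05 was found in 48 of the 214 members, beside 12% of all genes. Among the other genes with a mean of 3 or more it was found in 1822 of 10307. The median change of the members was -0.028, beside -0.091 for the other genes of that brightness and -0.060 for all genes. The change was therefore carried by an upper tail: the 90th percentile was 0.80 for members and 0.21 for the other genes, and 16 members had changes of more than 1. Without Ctm wild-type arrays 2 and 3 the 90th percentile was 0.35 for members and 0.23 for the other genes, and no member was past 1. The 15 were spread over the range of brightness, with 4 of 70 members between 3 and 4, 3 of 60 between 4 and 5, 4 of 53 between 5 and 6, 3 of 25 between 6 and 7 and 1 of 6 above 7. In each of these bins between 0.858% and 2.03% of the other genes were called.

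**Figure D1:**
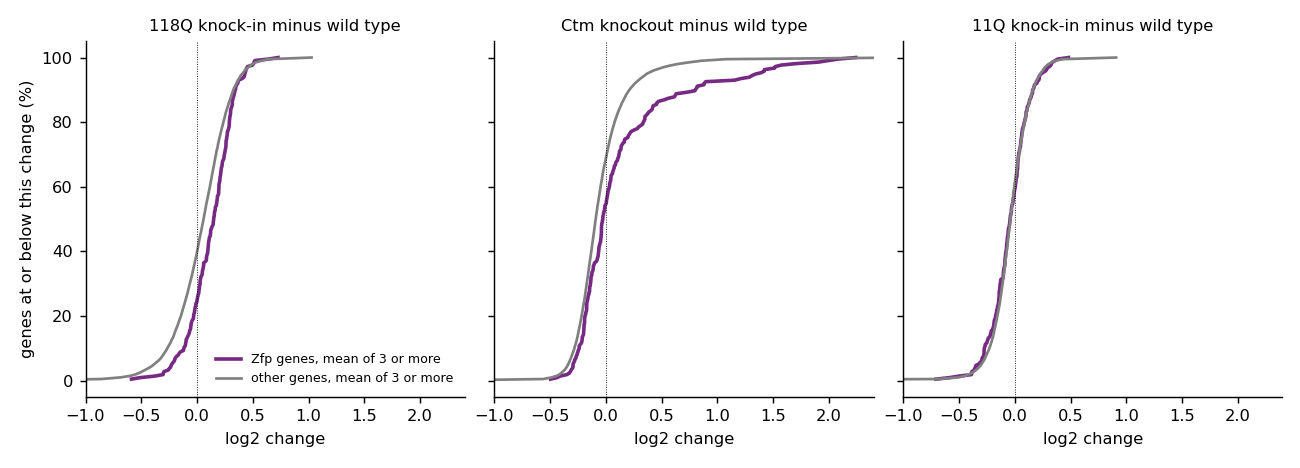
Cumulative share of genes (vertical axis, %) by log2 change (horizontal axis, shown from -1 to 2.4) for the 214 Zfp genes and the other genes with a mean of 3 or more, in the 118Q, Ctm and 11Q lines. In the Ctm line the Zfp curve leaves the other genes at its upper end (90th percentile 0.80 against 0.21), and in the 118Q line it lies to the right of them (median 0.15 against 0.058).

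Of the 15 called genes 8 lie on chromosome 17, among them the 5 with the largest changes. Zfp995 read 5.09, 4.83 and 5.25 in Ctm knockouts, against 4.64, 1.76 and 2.04 in Ctm wild types, a change of 2.24 (SE 0.46, limma adjusted p = 0.0267). Its means were 5.05 ± 0.21 in knockouts and 2.81 ± 1.59 in wild types (SD, n = 3 each), so the spread was on the wild-type side. Zfp946 read 5.80, 5.34 and 5.39 in knockouts, against 5.19, 2.13 and 2.95 in wild types, a change of 2.09 (SE 0.45, adjusted p = 0.0318). Zfp758 read 3.95, 4.00 and 3.76 in knockouts, against 3.46, 1.19 and 1.08 in wild types, a change of 1.99 (SE 0.39, adjusted p = 0.0229). In all 3 genes the groups did not overlap, which was part of the rule for naming genes and so is a description. In the Ctm line the groups did not overlap in 58 members (27.1%), beside 21.3% of all genes. Among the other genes with a mean of 3 or more the share was 29.2%, so that of the members was near the background. In these 3 genes wild-type array 1 was near the knockouts and arrays 2 and 3 were far below. Zfp942 read 4.87, 4.51 and 4.56 in knockouts, against 4.13, 1.82 and 2.27 in wild types, a change of 1.91 (SE 0.39, adjusted p = 0.0273). Its divergent partner Zfp943 read 5.70, 5.29 and 4.93 in knockouts, against 5.00, 2.93 and 2.87 in wild types, a change of 1.71 (SE 0.37, adjusted p = 0.0314). Zfp943 was named after its values were seen, since its groups overlap: knockout array 3 lies below wild-type array 1. The other 3 were Zfp948 with a change of 1.52 (SE 0.33), Zfp760 with 1.51 (SE 0.33) and Zfp160 with 1.29 (SE 0.24), at adjusted p between 0.0202 and 0.0315.

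Zfp932 and Zfp950, whose promoter windows are printed above, also rose. Zfp932, known in mouse embryonic stem cells as a KRAB protein that represses endogenous retroviruses, had the smallest p of the members. It read 6.78, 6.47 and 6.53 in Ctm knockouts, against 6.09, 4.95 and 4.72 in Ctm wild types, a change of 1.34 (SE 0.23, limma adjusted p = 0.00907), with means of 6.59 ± 0.16 in knockouts and 5.26 ± 0.73 in wild types (SD, n = 3 each). Zfp950 read 5.77, 5.58 and 5.38 in knockouts, against 5.06, 3.93 and 3.48 in wild types, a change of 1.42 (SE 0.27, adjusted p = 0.0210). Both genes show the same picture as the chromosome 17 genes, with 2 of the 3 wild-type arrays low and the third between them and the knockouts.

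The remaining 5 genes lie on other chromosomes, and 4 of them have roles known from other work. Zfp445, a KRAB protein that protects imprinted methylation in the mouse embryo, was the brightest member. It read 8.63, 8.45 and 8.46 in Ctm knockouts, against 8.20, 7.49 and 7.21 in Ctm wild types, a change of 0.88 (SE 0.17, limma adjusted p = 0.0215). Zfp711, on the X chromosome and linked in humans to intellectual disability, read 4.69, 4.34 and 4.47 in knockouts, against 4.09, 2.15 and 2.54 in wild types, a change of 1.57 (SE 0.32, adjusted p = 0.0254). Neither gene's groups overlapped, as the rule for naming required. Zfp638, which takes part in silencing of unintegrated retroviral DNA, read 6.75, 6.78 and 6.69 in knockouts, against 6.44, 5.65 and 5.67 in wild types, a change of 0.82 (SE 0.16, adjusted p = 0.0224). Zfp207, a spindle and kinetochore protein that binds Bub3, read 6.83, 6.75 and 6.63 in knockouts, against 6.43, 6.09 and 5.51 in wild types, a change of 0.72 (SE 0.17, adjusted p = 0.0464). Zfp62 rose by 1.21 (SE 0.27, adjusted p = 0.0380).

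**Figure D2:**
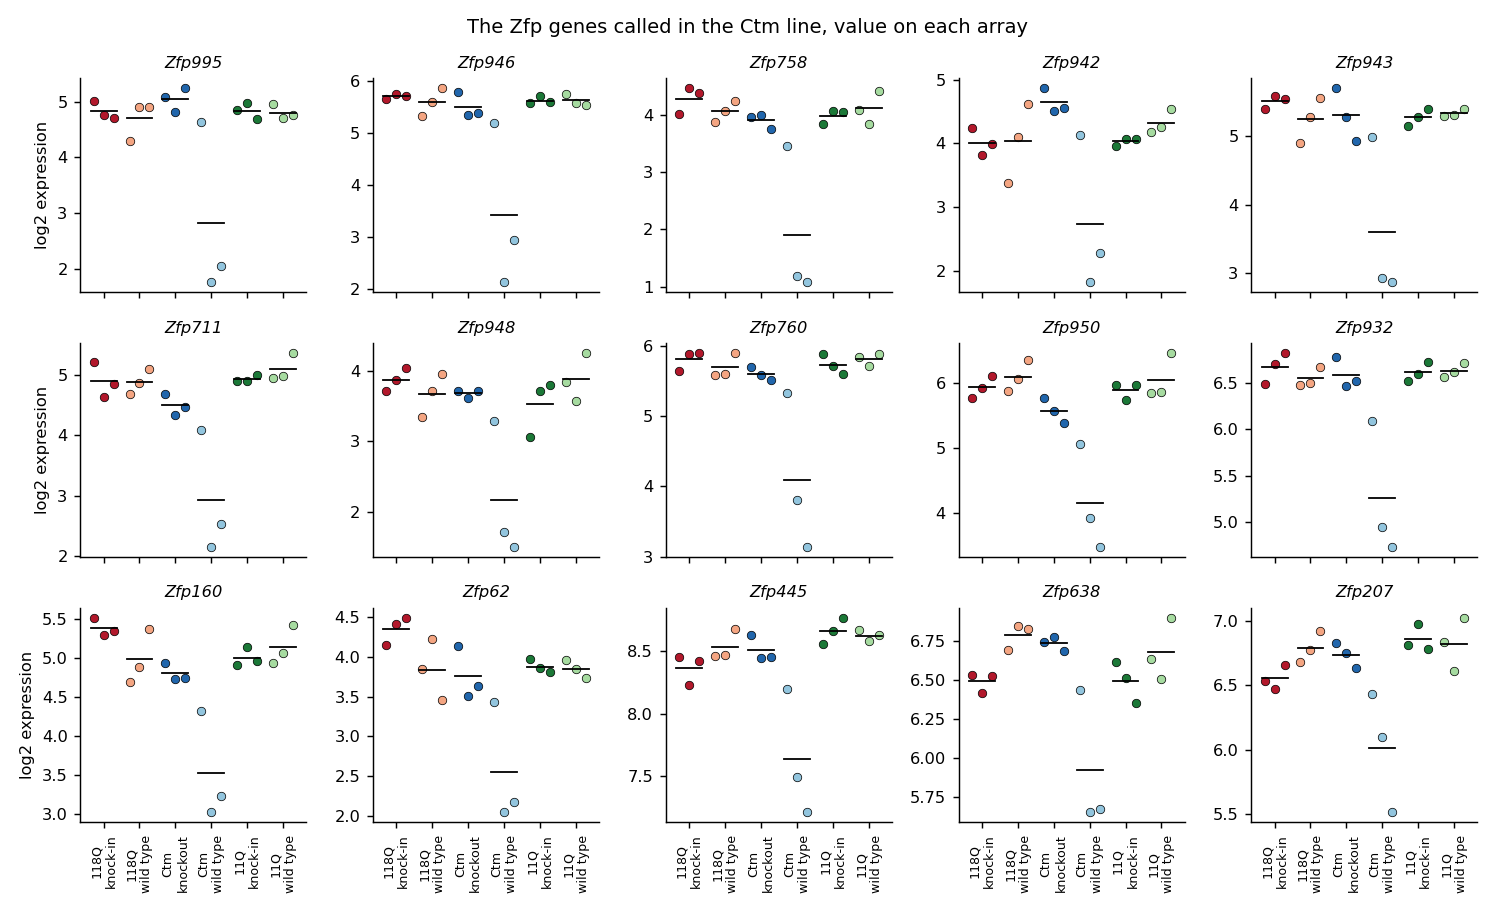
Log2 signal (vertical axes) of each of the 15 Zfp genes called in the Ctm line on each of the 18 arrays, by group; points are arrays and black lines group means. In every panel Ctm wild-type arrays 2 and 3 are the lowest points of the 18, and array 1 is the highest of the 3 Ctm wild types.

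The Ctm wild-type arrays are given singly because they differ among themselves in these genes. In all 15 called members wild-type arrays 2 and 3 lay below each of the 15 arrays of the other 5 groups, and array 1 did so in 10 of them. Measured from the average of the 6 knock-in-line wild types, the 15 genes had a median deviation of 0.018, -0.13 and -0.21 on the Ctm knockout arrays, against -0.42, -2.07 and -2.29 on the Ctm wild-type arrays. In these genes the knockout medians lay within 0.21 of the other lines' wild types, and those of wild-type arrays 2 and 3 more than 2 below. Over all members, 42 of 214 (19.6%) had wild-type arrays 2 and 3 below the other 15 arrays, beside 4.9% of all genes and 7.58% of the other genes with a mean of 3 or more. The 15 were called with these arrays in the comparison, so their place on them is a description.

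Counted without regard to calls, Ctm wild-type array 2 had 27 members (12.6%) more than 1 below the average of the knock-in-line wild types and array 3 had 24 (11.2%), while array 1 had 1 (0.467%). No member lay that low on any of the other 15 arrays. Among the other genes with a mean of 3 or more the shares were 2.07% on array 2, 2.49% on array 3 and 0.553% on array 1. Over all genes they were 1.46%, 1.71% and 0.407%. On the Ctm knockout arrays the shares over all genes were 0.385%, 0.346% and 0.198%.

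**Figure D3:**
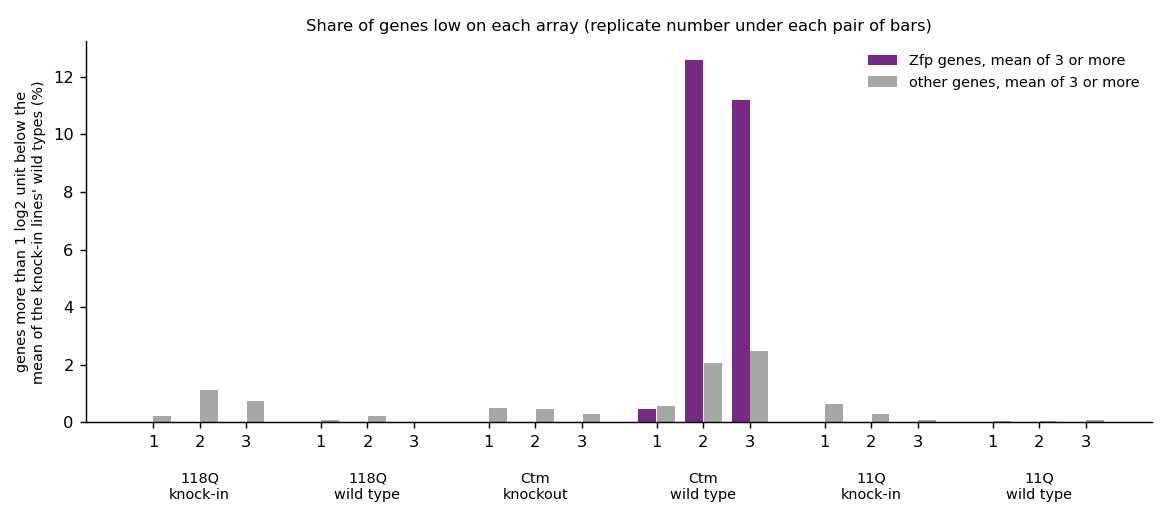
Share of genes (vertical axis, %) more than 1 log2 unit below the average of the 6 knock-in-line wild types on each of the 18 arrays, for the 214 Zfp genes (purple) and the other genes with a mean of 3 or more (grey). Ctm wild-type arrays 2 and 3 stand out, at 12.6% and 11.2% of Zfp genes beside 2.07% and 2.49% of the others.

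The calls in the Ctm line rest on those arrays. Without Ctm wild-type arrays 2 and 3 together, no member was called by limma, and leaving out either one alone also gave 0. The changes of the 15 then had a median of 0.39 in place of 1.51, all positive, between 0.27 for Zfp760 and 0.52 for Zfp942, at adjusted p between 0.704 and 0.907. Zfp995 was at 0.41, Zfp946 at 0.32, Zfp758 at 0.45 and Zfp932 at 0.50. Without wild-type array 1 the count was 35. Without knockout array 1 it was 0, and without knockout array 2 or 3 it was 1. With the 6 arrays of the Ctm line fitted alone, 0 members were called, although the changes themselves are the same in that fit. None of the marker lists had a called gene in the Ctm line. The 7 measured choroid plexus genes averaged between 2.87 and 6.60 on Ctm knockout arrays and between 3.51 and 6.78 on Ctm wild-type arrays, with wild-type array 2 at 6.74 and array 3 at 3.51. With that average in the model 14 members were called, and with the 3′ minus 5′ difference of control probe sets, which tracks RNA degradation, also 14. The Y-linked gene Eif2s3y read 6.37, 6.04 and 5.81 in knockouts, against 5.73, 5.07 and 4.57 in wild types, lowest on the same arrays 2 and 3, and its part in the result was not tested.

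Each Ctm group was also set against the 6 knock-in-line wild types, in which the 15 genes were called for the wild types and not for the knockouts. Between the Ctm wild types and those 6 arrays, 62 members (29%) were called, 9 higher and 53 lower, where 16.2% of all genes (7.32% higher and 8.84% lower) and 22.3% of the other genes with a mean of 3 or more were called. The smallest p-values were of Zfp950 with -1.92 (SE 0.24, limma adjusted p = 8.74e-05), Zfp711 with -2.06 (SE 0.27), Zfp160 with -1.54 (SE 0.21), Zfp157 with -0.83 (SE 0.12) and Zfp932 with -1.34 (SE 0.20). All but Zfp157 are among the 15, and that comparison uses the same Ctm wild-type arrays as the Ctm line itself. The median over members was -0.14, beside -0.014 for the other genes and 0.036 for all genes. Without Ctm wild-type arrays 2 and 3 the count was 4, and without either alone 37 or 38. Of the 15, Zfp950 with -1.02 (SE 0.22, adjusted p = 0.0399) and Zfp711 with -0.90 (SE 0.21, adjusted p = 0.0489) were then still called, and the median of the 15 was -0.42 in place of -1.62.

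Between the Ctm knockouts and the same 6 wild types, 21 members (9.81%) were called, 3 higher and 18 lower, where 9.72% of all genes (3.15% higher and 6.57% lower) and 13.5% of the other genes were called. None of the 15 was among them: their changes ranged from -0.50 to 0.47, at adjusted p between 0.175 and 0.997. Left without knockout array 1, 2 or 3 the count was 10, 6 or 4, and without 118Q wild-type array 3 or 11Q wild-type array 3 it was 11 or 13. A p that misses the threshold does not show that the knockouts match the other wild types. Line, litter and any processing difference between the lines cannot be told apart in these comparisons.

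The 8 called genes of chromosome 17 all lie in 1 run of neighbouring genes. From Zfp160 to Zfp40, in the order of the RefSeq table, the array measured 21 genes, of which 15 are members, 5 are Zfp genes below the level and 1 is Gm16386. All 15 members of this run had positive changes in the Ctm line, with a median of 1.42 and a range from 0.16 to 2.24, and 8 were called. Without Ctm wild-type arrays 2 and 3 the median was 0.27, 13 of the 15 were positive and none was called. The same 15 had a median of 0.15 in the 118Q line and -0.13 in the 11Q line. The 5 dimmer Zfp genes had a median of 0.24 and none was called, with Zfp51 the highest at 0.95. The run was outlined after its values were seen and carries no test. Probe sets of such close copies may detect each other's transcripts, which was not tested, so the 15 cannot be counted as independent genes.

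Among the uncalled members of the run, Zfp944 read 3.73, 3.87 and 3.84 in Ctm knockouts, against 3.70, 1.83 and 1.65 in Ctm wild types, a change of 1.42 (SE 0.34, limma adjusted p = 0.0552). Zfp994 read 3.90, 3.59 and 3.74 in knockouts, against 3.59, 1.80 and 1.66 in wild types, a change of 1.39 (SE 0.34, adjusted p = 0.0591). Wild-type array 1 lay within or beside the knockouts in both, and the other 2 wild-type arrays about 2 units below. Without those 2 arrays Zfp944 was at 0.11 and Zfp994 at 0.15. These genes were named after their values were seen. The window of Zfp944 overlaps that of Zfp758 and matches that of Zfp942 at 274 of 275 aligned bases (99.6%), so the run holds 2 near-identical divergent pairs.

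**Figure D4:**
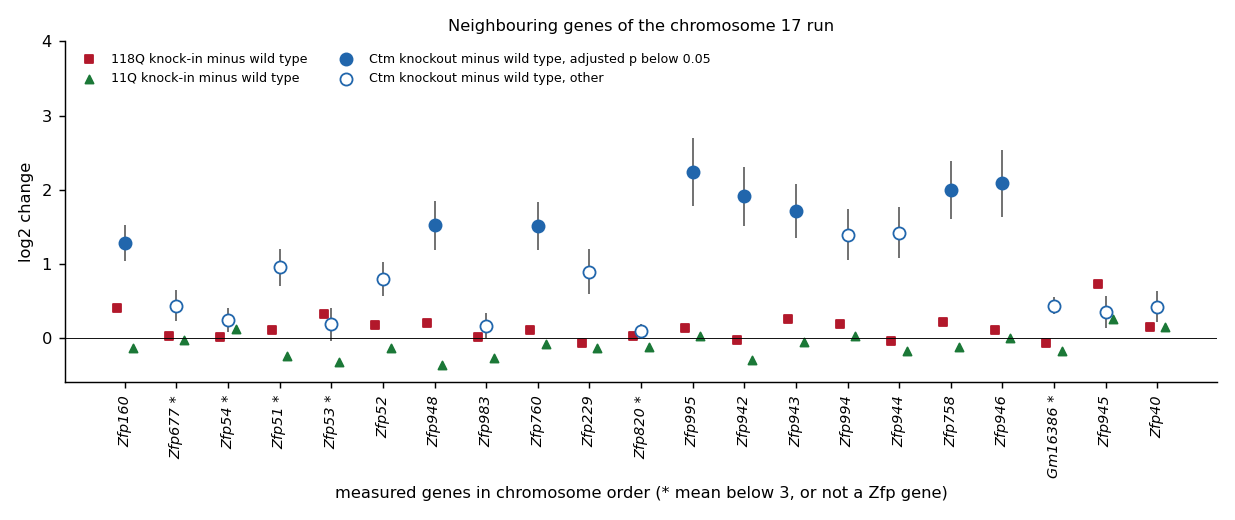
Log2 change (vertical axis) of the 21 measured genes of the chromosome 17 run in chromosome order, mutant minus wild type; circles are the Ctm line with SE bars, filled where called, squares the 118Q line and triangles the 11Q line. The Ctm circles reach 2.24 at Zfp995, and the 118Q and 11Q medians of the 15 members stay at 0.15 and -0.13.

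Elsewhere on chromosome 17 the picture was different. The other 14 members there had a median of 0.055 and none was called, and of 458 other genes of the chromosome with a mean of 3 or more 3 were called higher. Of the 15 called members, 7 had another called member within 3 measured genes. Genes around the 15 that are not Zfp genes numbered 42, none was called, and their median change was -0.080. The largest changes among them were of Chm, near Zfp711, with 0.81 (limma adjusted p = 0.0729) and Csf2ra, next to Zfp950, with 0.59 (adjusted p = 0.118). The 14 uncalled Zfp neighbours of the 15 had a median change of 0.38. Ppp2r1a, a phosphatase subunit gene next to Zfp160, was at -0.11. Chromosome 7, with 54 members the richest, had none called and a median of -0.12. The called members lay on chromosomes 17 (8 genes), 11 (2 genes), and 5, 6, 9, 19 and X (1 gene each). On the X chromosome 17 of 337 other genes with a mean of 3 or more were called higher, the largest count of any chromosome.

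Other probe sets of the same genes gave a partial second reading. Of the 15 called members, 11 had 20 further single-symbol probe sets, and 18 of these had positive changes in the Ctm line. Over all members, 124 genes had 229 further probe sets, these 20 included, of which 135 were positive and 5 were called. Of the 20, the 7 with a mean of 3 or more, from 4 genes, were all positive. Among those 7, 3 were called with adjustment over all 34945 single-symbol probe sets. These were second probe sets of Zfp950 with 1.21 (SE 0.24, limma adjusted p = 0.0247), Zfp445 with 0.81 (SE 0.17, adjusted p = 0.0323) and Zfp638 with 0.89 (SE 0.20, adjusted p = 0.0366). Of the 13 below a mean of 3, 11 were positive and none was called. When Ctm wild-type arrays 2 and 3 were left out, 16 of the 20 were positive, none was called and their median was 0.22. The second-brightest Zfp207 probe set was at 0.12, while the brightest gave 0.72. Its remaining probe sets, in order of brightness, were at 0.71, 0.65, 0.69 and 0.40, and none of these was called. All probe sets hybridise the same 18 RNA samples, so they repeat the measurement and not the animals.

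**Figure D5:**
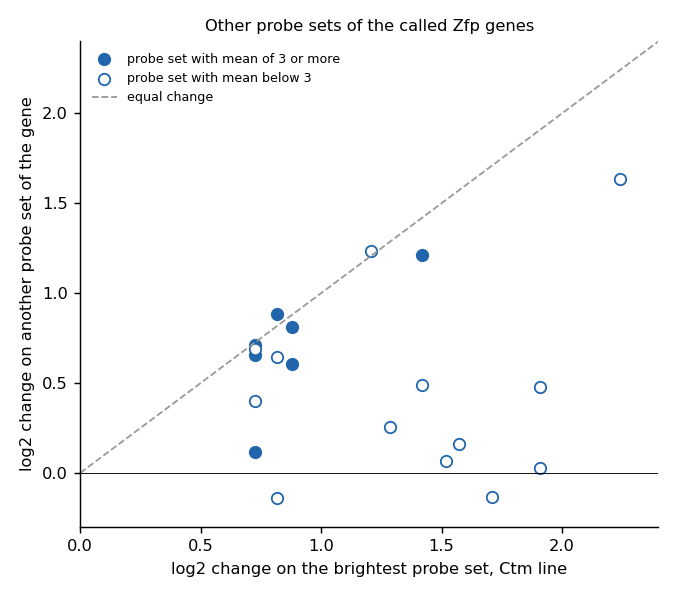
Log2 change in the Ctm line on each of the 20 further probe sets (vertical axis) against that on the gene's brightest probe set (horizontal axis) for 11 called Zfp genes; filled points have a mean of 3 or more, and the dashed line marks equal change. Of the 20 points 18 lie above 0, and most lie below the dashed line.

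Short motifs were looked up on both strands of the promoter windows, 7 in all. Of the 175 members with a RefSeq promoter window, 14 were among the 15. GGGCGG, on either strand, occurred in 9 of these 14 (64.3%), in 84 of the 161 uncalled members (52.2%) and in 35.9% of all 27025 promoters of the table. The 9 are not separate sequences: the overlapping windows of Zfp942 and Zfp943 hold the same GGGCGG, and the window of Zfp758 is near-identical to that of Zfp943. CCGGAAG, an ETS-type motif, on either strand, occurred in 1 of 14 (7.14%), in 18.6% of uncalled members and in 9.12% of all promoters. AANATGGCG occurred in 1 of 14, in 10.6% of uncalled members and in 2.51% of all promoters. The SBS element, the Kaiso palindrome, the Nrf1 palindrome and the TATA box TATAAA occurred in 0 of 14. In uncalled members their shares were 5.59%, 0.621%, 4.97% and 8.07% in that order, and in all promoters 1.26%, 0.496%, 0.977% and 14.2%. GC content had a median of 54.2% in the 14, 57% in the 161 and 52.7% in all promoters. A match of letters is not a site, and a window without one says nothing of the factor.

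In the 118Q line, 1 of the 214 members was called, as higher (0.467%), where 1.54% of all genes (0.808% higher and 0.731% lower) and 2.49% of the other genes with a mean of 3 or more were called. It was Zfp560, which read 5.36, 4.95 and 5.09 in 118Q knock-ins, against 4.20, 4.61 and 4.66 in 118Q wild types, a change of 0.64 (SE 0.14, limma adjusted p = 0.0313). The groups did not overlap, and the 11Q line gave 0.00 (SE 0.14). Over 17 alternative settings the change of Zfp560 in the 118Q line ranged from 0.28 to 0.73, and the call was lost in 7. The next smallest p-values missed the threshold: Zfp462 with -0.59 (SE 0.15, adjusted p = 0.0543), Zfp598 with 0.44 (SE 0.12, adjusted p = 0.0639), Zfp9 with 0.36 (SE 0.11, adjusted p = 0.0937) and Zfp945 with 0.73 (SE 0.22, adjusted p = 0.0940). Zfp462 organises heterochromatin in mouse embryonic stem cells, and Zfp598 is the ubiquitin ligase that marks collided ribosomes.

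Below the threshold the members leaned upward in the 118Q line. Changes were positive in 161 of 214 members (75.2%), beside 60.1% of the other genes of that brightness, and their median was 0.15, beside 0.058 for the other genes and 0.040 for all genes. The groups did not overlap in 52 members (24.3%), beside 18.1% of all genes and 24% of the other genes with a mean of 3 or more, a share near the background. At a mean between 3 and 4 the members' median was 0.19 and that of the other genes 0.073. Between 4 and 5 these were 0.15 and 0.087, and between 5 and 6 they were 0.13 and 0.074. The lean was not seen between 6 and 7, where the 25 members had a median of 0.049 and the other genes 0.044. Nor was it seen above 7, where the 6 members had a median of -0.093. In this line 3 of 4 Purkinje cell markers were called lower, averaging 9.02 to 9.68 in knock-ins and 9.87 to 9.94 in wild types. Of 5 microglia markers 2 were called higher, averaging 4.21 to 4.72 in knock-ins and 3.83 to 4.07 in wild types, and of 4 endothelial markers 2 were called lower, averaging 3.90 to 4.38 in knock-ins and 4.42 to 4.80 in wild types. In whole cerebellum, fewer cells of a type and less RNA per cell cannot be told apart, and the part of these shifts in the members' lean was not tested.

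The 118Q arrays also differed in RNA quality. The 3′ minus 5′ difference of control probe sets was 0.473, 0.459 and 0.415 in 118Q knock-ins, against 0.496, 0.538 and 0.613 in wild types, with no overlap. With it in the model no member was called and the median change stayed at 0.15. Without 118Q knock-in array 1 the count was 10, and it was 0 without knock-in array 2 or 3 or wild-type array 1 or 3.

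In the 11Q line no member was called by limma, as was no gene on the array (0%). An unadjusted p below 0.05 was found in 12 of the 214 members, beside 5.49% of all genes. Among the other genes with a mean of 3 or more it was found in 499 of 10307. The smallest p was of Zfp869, which read 3.84, 4.18 and 4.03 in 11Q knock-ins, against 4.79, 4.72 and 4.66 in 11Q wild types, a change of -0.71 (SE 0.14, adjusted p = 0.242). Zfp961 read 3.88, 3.80 and 3.57 in knock-ins, against 4.32, 4.26 and 4.42 in wild types, a change of -0.58 (SE 0.12, adjusted p = 0.322). The groups of both genes did not overlap, as was true of 27 members (12.6%) beside 10.3% of all genes. Zfp566 with -0.38, Zfp865 with 0.48 and Zfp11 with -0.38 followed, at adjusted p between 0.868 and 0.876. The members' median was -0.041, beside -0.038 for the other genes with a mean of 3 or more and -0.017 for all genes.

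The difference between the changes in the Ctm and 118Q lines was called in 10 members (4.67%), 7 higher and 3 lower, where 2.93% of all genes (1.09% higher and 1.84% lower) and 4.83% of the other genes with a mean of 3 or more were called. Zfp638 had the smallest p, with 0.82 (SE 0.16) in the Ctm line and -0.30 (SE 0.16) in the 118Q line, a difference of 1.11 (SE 0.23, limma adjusted p = 0.0209). Zfp560 differed by -0.93 (SE 0.20, adjusted p = 0.0239) and Zfp871 by 0.65 (SE 0.14, adjusted p = 0.0258). Zfp787 differed by -0.84 (SE 0.19, adjusted p = 0.0289) and Zfp462 by 0.94 (SE 0.21, adjusted p = 0.0291). Of the 15 members called in the Ctm line, 5 were called in this difference, so for the other 10 a larger change in the Ctm line than in the 118Q line was not shown. No difference passed without Ctm wild-type arrays 2 and 3, or with the 12 arrays of these lines fitted alone. Left out singly, Ctm wild-type array 3 or 118Q knock-in array 3 gave 0, Ctm knockout arrays 1 and 2 and 118Q wild-type array 3 gave 1, and Ctm wild-type array 1 gave 27. Left out likewise, 118Q knock-in array 2 and Ctm knockout array 3 gave 3, Ctm wild-type array 2 gave 5, 118Q wild-type array 2 gave 6, and 118Q wild-type array 1 and knock-in array 1 gave 8 and 14.

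Between the Ctm and 11Q lines no member differed by limma (0%), nor did any gene. An unadjusted p below 0.05 was found in 50 of the 214 members, beside 8.48% of all genes. Among the other genes with a mean of 3 or more it was found in 1134 of 10307. The smallest p-values were of Zfp638 with 1.00 (SE 0.23), Zfp712 with 0.69 (SE 0.16), Zfp932 with 1.35 (SE 0.32), Zfp160 with 1.42 (SE 0.34) and Zfp950 with 1.58 (SE 0.39), at adjusted p between 0.145 and 0.183. Leaving out Ctm wild-type array 1 gave 23 calls. Between the 118Q and 11Q lines none was called either (0%), with 21 of the 214 at an unadjusted p below 0.05 beside 10.3% of all genes. Among the other genes with a mean of 3 or more it was 1372 of 10307. There Zfp566 came first with 0.82 (SE 0.19, adjusted p = 0.202), then Zfp961 with 0.60, Zfp560 with 0.64, Zfp869 with 0.65 and Zfp938 with 0.53.

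Among the 20 looked-up members with roles established elsewhere, Zfp207, Zfp445 and Zfp711 were called in the Ctm line. In that line 7.01% of all members and 0.929% of all genes were called. None of the other looked-up members was called in any line. Zfp423, needed for growth of the cerebellar vermis in mice, was at 0.20 in the 118Q line, -0.17 in the Ctm line and 0.29 in the 11Q line. Its relative Zfp521, a cofactor in neural and blood cell differentiation, was at -0.30, 0.07 and -0.14 in the same order of lines. Zfp292, linked to neurodevelopmental disorders in humans, came close in the Ctm line with 0.56 (SE 0.13, limma adjusted p = 0.0547), and was at 0.25 without wild-type arrays 2 and 3. Its other probe sets with a mean of 3 or more were at 0.45, 0.59 and 0.56. The last was called with adjustment over all single-symbol probe sets (SE 0.12, limma adjusted p = 0.0335). For Ctm wild types minus the knock-in lines' wild types these gave -0.75, -0.30 and -0.84, beside -0.12 on the brightest.

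The looked-up members that follow were uncalled in the lines. Zfp36, tristetraprolin, which brings AU-rich messenger RNAs to decay, was at 0.18, -0.19 and 0.17 in the 118Q, Ctm and 11Q lines. Zfp106, an RNA-binding protein whose loss causes motor neuron degeneration in mice, stayed between -0.05 and 0.02. Zfp326, which couples transcription to splicing, was at 0.37 in the Ctm line and Zfp410, the activator of Chd4, at 0.29 in the 118Q line. Among silencers of repeats and imprinted genes, Zfp809, which silences murine leukaemia proviruses, was at 0.12 in the Ctm line and Zfp568, a repressor of a placental Igf2 transcript, at -0.15. Zfp57 and Zfp708 were measured below the level of 3, and Zfp143, Zfp238 and Zfp706 were not analysed here.

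The partners of KRAB proteins had 1 call in the 3 lines. Of 30 measured co-repressor and heterochromatin genes, 1 rose in the Ctm line and none was called in the 118Q or 11Q line, with medians of -0.0006, 0.02 and 0.046. The one was Atrx, the remodeller that loads histone H3.3 into heterochromatin with Daxx. It read 7.89, 7.76 and 7.80 in Ctm knockouts, against 7.39, 6.05 and 6.19 in Ctm wild types, a change of 1.27 (SE 0.24, limma adjusted p = 0.0202), with the same 2 wild-type arrays low, and was at 0.42 without them. Trim28 was at -0.06 (SE 0.10) and Setdb1 at 0.03 (SE 0.12) in that line. Between the Ctm wild types and the knock-in-line wild types, 6 of the 30 were called lower and none higher, where 8.84% of all genes were lower.

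Other zinc finger families had 2 calls in the Ctm line, where 0.929% of all genes were called. Of 28 Zfp genes with digits and letters 1 rose, Zfp280d, while Zfp518a had the largest change, 1.22, and was not called. Of 40 Zbtb genes 1 rose, Zbtb20, and none of 10 Zscan, 10 Zkscan, 16 Klf and 4 Zic genes was called. Zfp280d read 6.73, 6.60 and 6.56 in Ctm knockouts, against 6.30, 5.39 and 5.16 in Ctm wild types, a change of 1.01 (SE 0.19, limma adjusted p = 0.0197). Zbtb20, a repressor in neurons and glia, read 7.33, 7.12 and 6.81 in knockouts, against 6.22, 6.44 and 5.82 in wild types, a change of 0.93 (SE 0.20, adjusted p = 0.0318). In the 118Q line 1 Zbtb gene fell, Zbtb46, which changed by -0.50 (SE 0.11, adjusted p = 0.0313). With Ctm wild-type arrays 2 and 3 left out, Zfp280d was at 0.33 and Zbtb20 at 0.86 in the Ctm line, and neither was called. Zfp280d, Zfp518a, Zbtb20 and Zbtb46 were named after their values were seen. Low Ctm wild types were not particular to the members. Against the 6 knock-in-line wild types, 10 of the 28 Zfp genes with digits and letters were called lower and 1 higher. The counts were 6 lower and 5 higher for Zbtb, 3 and 0 for Zkscan, 1 and 1 for Zscan, 0 and 1 for Zic and 0 and 0 for Klf. Of all genes 8.84% were lower and 7.32% higher.

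Among the 91 Zfp genes below the level 1 (1.1%) was called in the Ctm line and 1 (1.1%) in the 118Q line, near the 0.929% and 1.54% of all genes called in these lines. Zfp182, on the X chromosome, with a mean of 2.80, read 3.19, 3.29 and 3.25 in Ctm knockouts, against 2.21, 1.42 and 1.20 in Ctm wild types, a change of 1.63 (SE 0.27, limma adjusted p = 0.0090), and was at 1.03 without wild-type arrays 2 and 3 (adjusted p = 0.726). Zfp408, with a mean of 2.76, read 3.21, 3.36 and 3.58 in 118Q knock-ins, against 2.71, 2.77 and 2.84 in 118Q wild types, a change of 0.61 (SE 0.13, adjusted p = 0.0333). Neither gene's groups overlapped, and both were named after their values were seen.

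The members themselves ranged in mean signal from 3.00 to 8.39, with 70 under 4, 113 from 4 to 6 and 31 at 6 or more. The 5 brightest probe sets were of Zfp445 with 8.39, Zfp871 with 7.70, Zfp91, a ubiquitin ligase, with 7.54, Zfp622, which in yeast has a homologue that matures ribosomes, with 7.52, and Zfp106 with 7.48. Signals of different probe sets depend on their probes as well as on transcript, so this is an order of signals and not of abundance. The last 4 lie close together, and no difference between them was tested. Of the 214 brightest probe sets 187 end in _at, 10 in _a_at, 8 in _s_at and 9 in _x_at, the last 2 being designs that may detect more than 1 transcript family.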

How the data were processed

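RNA of 18 cerebellar samples was hybridised to Affymetrix mouse arrays, 1 array per sample. The deposited values are log2 signals per probe set, made by the authors with RMA (no version stated), per the submitters' processing notes. They range from -0.26 to 12.2, and the zero point of the scale is not given in the sources used here, so changes of dim genes depend on the authors' background step. Of 45101 probe sets, 64 array controls and 10092 with several gene symbols or none were left out. The brightest of each gene's 34945 single-symbol probe sets stood for the gene, which gave 18193 genes. All 214 members matched a RefSeq gene of GRCm38.p6 by gene ID, and that table gave chromosomes and gene order only.

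Tests used limma 3.58.1 under R 4.3.3, with lmFit on all 18 arrays, a mean for each group, and eBayes with a constant prior (12 residual and 5.98 prior degrees of freedom), two-sided, adjusted by Benjamini-Hochberg over all genes at 0.05. The code was tested on simulated data. The labels name the replicates as separate samples and say nothing further of litters or of scan dates, so p-values measure the spread between these samples, and the number of arrays limits the precision. Promoter windows were aligned locally, pair by pair.

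Named genes were, per comparison, the called members whose groups do not overlap, by size, or the 5 smallest p-values where fewer than 5 were called, plus members with known roles and the brightest. The members, the lists and the rule were chosen with earlier results of these data known. Alternatives were single probe sets, averages over a gene's probe sets, dim genes left out, trend and robust settings, array weights, renewed quantile normalisation, an RNA quality covariate, replicate number as a block, fewer arrays, a fold change of 1.5 and other membership rules. The omission of Ctm wild-type arrays 2 and 3 and a choroid plexus covariate were added after seeing the data.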

Additional observations from a re-analysis of the deposited data

Results flagged for a closer look

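The change in the Ctm line differed from that in the 118Q line, by limma's test of the difference itself, in 9 of the members described by name. Higher in the Ctm line were Zfp950 by 1.58 (SE 0.39, adjusted p = 0.0390), Zfp932 by 1.22 (SE 0.32, adjusted p = 0.0487) and Zfp638 by 1.11 (SE 0.23, adjusted p = 0.0209). Zfp445 differed by 1.05 (SE 0.24, adjusted p = 0.0326), Zfp207 by 0.96 (SE 0.24, adjusted p = 0.0390), Zfp462 by 0.94 (SE 0.21, adjusted p = 0.0291) and Zfp871 by 0.65 (SE 0.14, adjusted p = 0.0258). Lower in the Ctm line were Zfp560 by -0.93 (SE 0.20, adjusted p = 0.0239) and Zfp787 by -0.84 (SE 0.19, adjusted p = 0.0289). Over the alternative settings the difference of Zfp560 ranged from -1.03 to -0.14. In Zfp462, Zfp871 and Zfp787 neither line's own change passed the threshold. Without Ctm wild-type arrays 2 and 3 none of these differences was called.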

How the results depend on the processing

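Of 1127 alternative values over 55 results, 881 kept direction and side of the threshold or stayed within the spread. A further 165 lost the threshold, 23 gained it and 58 moved. No single-gene value changed sign. The members' median in the Ctm line did, from -0.028 to 0.011 without Ctm knockout array 3. The cause of the moves was not tested. Members called in the Ctm line (15) became 9 with trend and robust settings, 38 with array weights, and 0 with the line's arrays alone or without wild-type arrays 2 and 3. In the 118Q line (1) they became 0 with the mean of probe sets, the RNA quality covariate or the line's arrays alone, 4 without dim genes, 3 with trend and robust settings, 27 with array weights, 2 after quantile normalisation and 2 over every Zfp gene. For Ctm wild types minus the knock-in lines' wild types (62) they became 41 with those arrays alone, 34 with a fold of 1.5, 41 at a mean of 4 and 4 without arrays 2 and 3. For Ctm knockouts minus the same wild types (21) they became 11 with the mean of probe sets or those arrays alone, 33 with array weights, 12 after quantile normalisation and 2 with a fold of 1.5. For the Ctm minus 118Q difference (10) they became 1 with the mean of probe sets or the RNA quality covariate, 19 without dim genes, 39 with array weights, and 0 with both lines alone or without arrays 2 and 3. Array weights gave 14 for the Ctm minus 11Q difference and 1 for the 118Q minus 11Q difference, in place of 0 each. Leaving out each array in turn gave 0 to 35 calls in the Ctm line, 0 to 10 in the 118Q line, 0 to 0 in the 11Q line, 37 to 70 and 4 to 29 for Ctm wild types and knockouts minus the other wild types, and 0 to 27, 0 to 23 and 0 to 0 for the Ctm minus 118Q, Ctm minus 11Q and 118Q minus 11Q differences. The members' median then ranged from 0.094 to 0.18 in the 118Q line, -0.063 to 0.011 in the Ctm line and -0.077 to -0.0031 in the 11Q line. Same-numbered arrays had correlations of deviations between -0.20 and 0.23, so the numbers do not pair the samples; with replicate number as a block the counts were 1, 15 and 0 in the 118Q, Ctm and 11Q lines, 64 and 23 for Ctm wild types and knockouts minus the other wild types, and 7, 0 and 0 for the differences between lines. Dim genes near the lower end of the scale limit what can be seen.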
